A study of Mus musculus with 4 samples.

Results

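Wnt signals reach a cell through membrane receptors, are tempered outside it by secreted antagonists, are amplified by R-spondins and are read out inside it by beta-catenin and the TCF/LEF factors. The genes described here are 41 named members of this system, taken by symbol from the 25819 rows of an RNA-Seq table of the mouse urogenital sinus (UGS), the embryonic tissue from which the prostate buds. They are 17 receptors and co-receptors, 10 antagonists counting the DKK receptor *Kremen1*, 4 R-spondins and 10 effectors, feedback regulators and targets. All 41 had 1 row each, 39 reached 1 FPKM in at least 1 library, and 38 did so in every library.

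Whole UGS was taken from male embryos at E16.5 and E18.5, counted in days after the copulatory plug, out of matings of mice heterozygous for a *Tbx18* allele in which GFP had been knocked in. Embryos homozygous for it, *Tbx18* GFP/GFP, carry the null allele in every tissue, and the controls were wild type littermates, all on a B6C3-F1 hybrid background. The 4 groups were wild type and *Tbx18* GFP/GFP UGS at E16.5, then wild type and *Tbx18* GFP/GFP UGS at E18.5, with the homozygotes called the mutant below. Each was 1 library of RNA pooled from 3 embryos, so no replicate error can be given, no test was applied, and differences are given as ratios of 1 library to another. FPKM corrects the number of reads of a gene for the length of its transcript and for the reads in the library. Values of the 4 libraries are listed in the order just given.

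In the canonical branch, a Wnt ligand bridges a Frizzled receptor and LRP5 or LRP6, beta-catenin escapes destruction by the complex built on APC and axin, and it joins TCF/LEF factors on target genes. Several targets, among them *Axin2*, *Nkd1* and *Znrf3*, feed back to damp the signal. In the developing prostate, Wnt signals pass between the mesenchyme and the epithelial buds that grow into it. In RNA of whole tissue, fewer cells of a type and less RNA per cell cannot be told apart.

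The E18.5 wild type library stood apart from the other 3. The deposited values allowed depth to be estimated at about 64000000, 55700000, 29000000 and 52400000 mapped reads, so E18.5 wild type was also the shallowest. It held the highest or the lowest value of the 4 for 85.8% of 15023 genes, those reaching 1 FPKM somewhere. Over genes reaching 1 FPKM in both genotypes, the median log2 ratio of mutant to wild type was 0.01 for the earlier stage and 0.29 for the later. Ratios at E18.5 are therefore also given centred on that median, and adjusted by removing their trend with the length and GC content of transcripts. All 6 markers of UGS mesenchyme and all 8 of its epithelium had at least 1 FPKM in every library. Summed levels of 5 smooth muscle markers, 540.3 to 3434.2 FPKM, had log2 ratios of mutant to wild type of -0.95 at E16.5 and 1.48 at E18.5. For 4 erythroid markers they were 0.68 and 2.19. All 8 skeletal muscle markers were lower in the mutant at E16.5, while at E18.5 3 were higher and 5 lower, with a median log2 ratio of -0.35 although *Acta1* and *Ckm* brought that of the sum to 1.02. For all of these, the part of the cells in the values below was not tested. *Tbx18* itself had 3.47, 2.50, 3.16 and 2.93 FPKM, which do not separate transcript of the knock-in locus from that of an intact one.

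The levels of the members spanned a wide range. *Ctnnb1*, which encodes beta-catenin, and *Sfrp2*, which encodes a secreted Wnt-binding protein, were the 2 highest members. *Ctnnb1* had 266, 256, 162 and 247 FPKM. *Sfrp2* had 218, 194, 210 and 171 FPKM, and was above *Ctnnb1* in the E18.5 wild type library alone. At the other end, *Dkk1*, a DKK antagonist of LRP5 and LRP6, stayed between 0.563 and 0.857 FPKM, and *Rspo4* between 0.0145 and 0.0354 FPKM, about 1 to 4 reads. Neither was used for ratios.

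**Figure D1:**
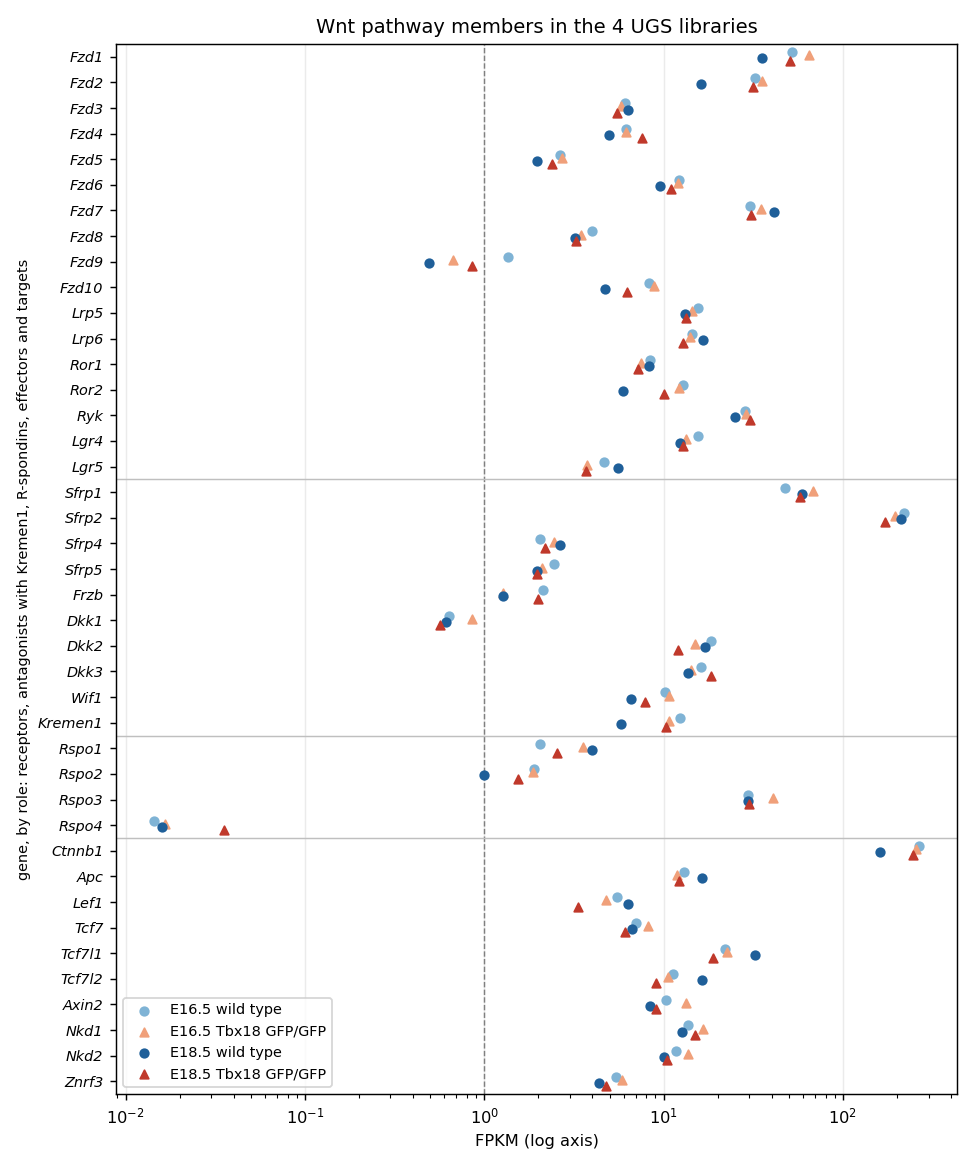
FPKM (log axis) of the 41 members in the 4 libraries, with circles for wild type and triangles for *Tbx18* GFP/GFP, grouped by role, 1 point per library. Most members lie within a narrow span; the E18.5 wild type point is the outermost of the 4 for 33 of the 39 members that reach 1 FPKM, the dashed line.

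Among the Frizzled receptors, 3 of 10 carried most of the signal. *Fzd1* had 52.2, 64.9, 35.4 and 50.6 FPKM. *Fzd2* had 32.2, 35.3, 16.2 and 31.5 FPKM, and *Fzd7* had 30.5, 35.1, 41.5 and 30.8 FPKM. Together these 3 made 73.8%, 77.3%, 74.9% and 75.5% of the summed FPKM of the 10 Frizzled genes, so their joint share differed little between libraries. What differed was the split between them in E18.5 wild type UGS. There *Fzd7* made 33.4% of the family against 19.6% to 20.6% in the other 3 libraries, and *Fzd2* made 13.1% against 20.2% to 21%. These shares are taken within a library and do not depend on how libraries are scaled to each other. They were not adjusted for length and GC content, which shifts each gene by its own amount. That adjustment took the E18.5 log2 ratio of mutant to wild type from 0.52 to 0.01 for *Fzd1*. For *Fzd2* it went from 0.96 to 0.36, and for *Fzd7* from -0.43 to -0.84.

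The remaining Frizzled genes were lower. *Fzd6*, a receptor known from planar cell polarity, had 12.2, 11.98, 9.55 and 11 FPKM. *Fzd10* had 8.31, 8.88, 4.72 and 6.24 FPKM, with both E18.5 libraries below both E16.5 libraries. *Fzd3*, known from axon guidance and planar polarity, was nearly level at 6.10, 5.78, 6.31 and 5.47 FPKM, its highest value only 1.15 times its lowest. *Fzd4*, which also serves as the receptor for norrin, had 6.21, 6.20, 4.99 and 7.53 FPKM. It was level between genotypes at E16.5 and 1.51-fold higher in the mutant at E18.5. *Fzd8* had 3.98, 3.46, 3.21 and 3.23 FPKM, and *Fzd5* had 2.64, 2.72, 1.98 and 2.38 FPKM. Neither of these reached 1.5-fold between any 2 libraries. *Fzd9* had 1.36, 0.672, 0.490 and 0.855 FPKM, about 181, 77.9, 29.6 and 93.2 reads. It reached 1 FPKM only in E16.5 wild type UGS and entered ratios only through that library, so its difference there was in part fixed by the minimum.

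The LRP co-receptors varied little. *Lrp5* had 15.5, 14.3, 13.2 and 13.3 FPKM and *Lrp6*, the close relative with the same role, had 14.3, 14.02, 16.49 and 12.8 FPKM. *Lrp5* was 1.08, 1.02, 0.8 and 1.03 times *Lrp6* within a library, so as deposited the order of this pair was turned in E18.5 wild type UGS. The GC content of the pair differs, at 58.6% and 46.0%. Their E18.5 log2 ratios of mutant to wild type were 0.01 and -0.36 as deposited. Adjusted for length and GC content they were -0.58 and -0.23, in the opposite order. *Ryk*, an atypical receptor for WNT5A and other ligands, had 28.5, 28.7, 25.0 and 30.4 FPKM. *Ror1* and *Ror2* encode the receptor tyrosine kinases through which WNT5A signals without beta-catenin. *Ror1* had 8.45, 7.49, 8.24 and 7.175 FPKM, and *Ror2* had 12.9, 12.2, 5.95 and 10.1 FPKM. *Ror1* was 0.654, 0.614, 1.39 and 0.713 times *Ror2*, so *Ror2* was the higher of the pair in all libraries but E18.5 wild type. Here too GC content differs, at 47.2% and 58.9%. The E18.5 log2 ratios of -0.20 for *Ror1* and 0.76 for *Ror2* became -0.24 and 0.07 once adjusted. The receptors for R-spondins were *Lgr4* with 15.6, 13.4, 12.3 and 12.7 FPKM and *Lgr5*, a marker of epithelial stem cells in several organs, with 4.68, 3.75, 5.54 and 3.67 FPKM. *Lgr5* was lower in the mutant at both stages, with log2 ratios of -0.32 at E16.5 and -0.59 at E18.5.

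*Sfrp2* and *Sfrp1* dominated the secreted frizzled-related proteins, which bind Wnt ligands or their receptors outside the cell. *Sfrp1*, a regulator of prostate branching, had 47.6, 68.2, 59.1 and 57.3 FPKM. Its log2 ratio of mutant to wild type was 0.52 at E16.5, with 95% limits of 0.49 to 0.55 from counting error only, and -0.05 at E18.5. Its share of the 5 SFRP genes was 17.5%, 25.4%, 21.5% and 24.4%, against 80.1%, 72.4%, 76.4% and 73.0% for *Sfrp2*. *Sfrp2* had the lower value in the mutant at both stages, by log2 ratios of -0.17 and -0.30. *Sfrp4* had 2.05, 2.46, 2.63 and 2.18 FPKM and *Sfrp5* had 2.45, 2.097, 1.98 and 1.98 FPKM, and neither differed by 1.5-fold between any 2 libraries.

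*Frzb*, the founding member of this family, was the antagonist that passed 1.5-fold in opposite directions at the 2 stages as deposited. *Frzb* lies on chromosome 2 from 80252127 to 80287553 in the positions of the deposited table, whose build is not named. It had 2.14, 1.27, 1.27 and 1.995 FPKM, so E16.5 wild type and E18.5 mutant were high and the other 2 libraries low. The log2 ratio of mutant to wild type was -0.75 at E16.5 (counting limits -1.0 to -0.50) and 0.65 at E18.5 (0.33 to 0.98). These rest on about 401, 208, 108 and 307 reads. At E18.5 it was 0.36 centred, 0.32 adjusted for length and GC content and 0.23 with library sums made equal, all short of 1.5-fold. Within the mutant, *Frzb* was the member with the largest stage ratio among those past the minimum, with a log2 of 0.65.

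The DKK proteins block LRP5 and LRP6 or, in the case of DKK3, act by other routes. *Dkk2* had 18.4, 14.9, 17.03 and 12.1 FPKM, lower in the mutant at both stages with log2 ratios of -0.30 and -0.49. *Dkk3* had 16.2, 14.1, 13.7 and 18.4 FPKM, with log2 ratios of -0.19 and 0.42. Centred, the E18.5 ratios were -0.78 for *Dkk2* and 0.13 for *Dkk3*, and adjusted for length and GC content they were -0.63 and 0.07. The share of *Dkk2* in the 3 DKK genes was 52.2%, 49.9%, 54.3% and 38.9%, so *Dkk2* led in the first 3 libraries and *Dkk3* led in the E18.5 mutant with 59.3%. *Wif1*, which binds Wnt ligands directly, had 10.2, 10.7, 6.62 and 7.85 FPKM, lower at E18.5 in both genotypes. *Kremen1*, a receptor that works with DKK proteins to remove LRP6 from the surface, lies on chromosome 11 from 5091555 to 5161613 and had 12.3, 10.7, 5.76 and 10.3 FPKM. Its E16.5 log2 ratio was -0.20 and that of E18.5 was 0.84, where the wild type library was the one that stood low. The E18.5 ratio of *Kremen1* was 0.55 centred and 0.4 adjusted.

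Of the R-spondins, ligands of LGR4 and LGR5 that raise the number of Wnt receptors at the surface, *Rspo3* made between 85.5% and 88.3% of the family in every library. *Rspo3* had 29.7, 40.95, 29.4 and 30.02 FPKM, so the E16.5 mutant was high and the other 3 libraries lay together. Its log2 ratio at E16.5 was 0.46 (counting limits 0.41 to 0.52) and that at E18.5 was 0.03. *Rspo1*, on chromosome 4 from 124663674 to 124686343, had 2.04, 3.55, 3.97 and 2.55 FPKM, about 211, 320, 187 and 217 reads. The mutant was above wild type at E16.5 with a log2 ratio of 0.80 (0.54 to 1.06) and below it at E18.5 with -0.64 (-0.93 to -0.35). *Rspo1* and *Frzb* thus went in opposite directions at each stage. *Rspo2* had 1.90, 1.87, 1.00 and 1.54 FPKM, level between genotypes at E16.5 and 1.54-fold higher in the mutant at E18.5 (counting limits of the log2 ratio 0.27 to 0.99).

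**Figure D2:**
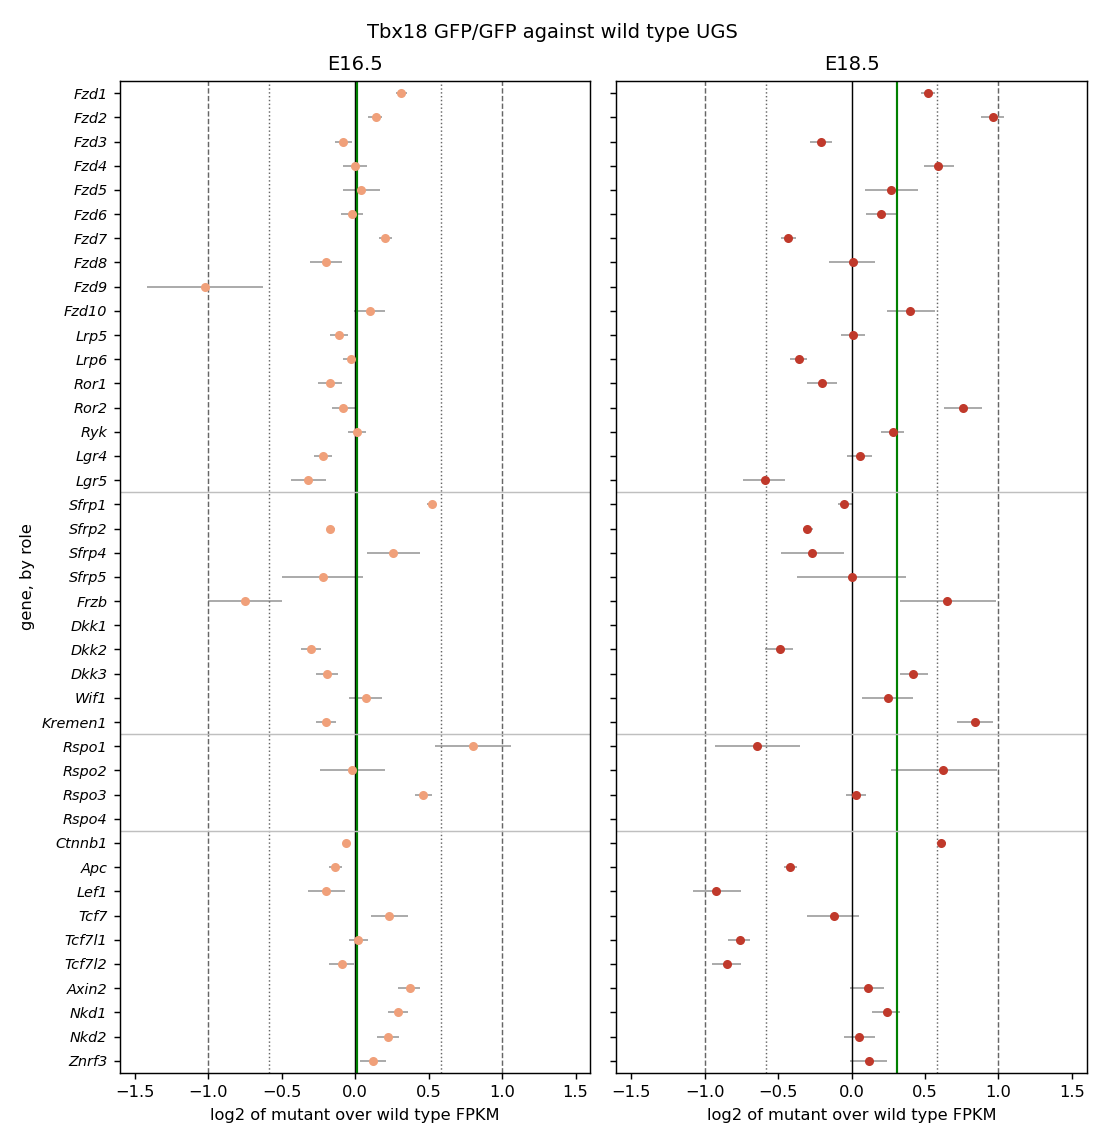
Log2 ratio of *Tbx18* GFP/GFP to wild type FPKM for each member reaching 1 FPKM in one of the pair, at E16.5 (left) and E18.5 (right). Bars are 95% limits from counting error only, the green line is the median of all genes, and dotted and dashed lines mark 1.5-fold and 2-fold; at E16.5 only *Fzd9*, *Frzb* and *Rspo1* lie outside the dotted lines, at E18.5 12 members do.

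The effectors held the members with the lowest E18.5 ratios, the TCF/LEF factors through which beta-catenin acts on DNA. *Lef1*, on chromosome 3 from 130813389 to 130926252, had 5.50, 4.80, 6.32 and 3.35 FPKM. *Tcf7l2*, on chromosome 19 from 55816300 to 56008145, had 11.2, 10.5, 16.3 and 9.08 FPKM. *Tcf7l1*, which acts largely as a repressor and lies on chromosome 6 from 72576374 to 72738950, had 22.05, 22.4, 32.2 and 18.96 FPKM. In each of these 3 genes E18.5 wild type was the highest library and the E18.5 mutant the lowest. Their log2 ratios of mutant to wild type at E18.5 were -0.92 for *Lef1*, -0.85 for *Tcf7l2* and -0.76 for *Tcf7l1*, with counting limits that together ran from -1.08 to -0.69. At E16.5 the same ratios were -0.20, -0.09 and 0.02. *Tcf7*, the remaining TCF/LEF gene, had 6.998, 8.23, 6.63 and 6.09 FPKM and a log2 ratio of -0.12 at E18.5. The summed FPKM of the 4 genes was 45.8, 46.0, 61.5 and 37.5, and *Tcf7l1* made 48.1% to 52.4% of it in every library.

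*Ctnnb1*, on chromosome 9 from 120842518 to 120869625, went the other way from its partners at E18.5, with a log2 ratio of 0.61 between mutant and wild type against -0.06 at E16.5. Set against *Ctnnb1* within the same library, *Tcf7l1* was 0.0828, 0.0876, 0.199 and 0.0768, so the E18.5 wild type library stood apart from 3 libraries that lay close together. The same ratio for *Tcf7l2* was 0.0423, 0.0412, 0.101 and 0.0368. That for *Lef1* was 0.0207, 0.0188, 0.039 and 0.0135, the E18.5 mutant having the lowest value. *Apc*, whose product scaffolds the destruction of beta-catenin, had 13.0, 11.8, 16.3 and 12.2 FPKM, with log2 ratios of -0.14 and -0.42.

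**Figure D3:**
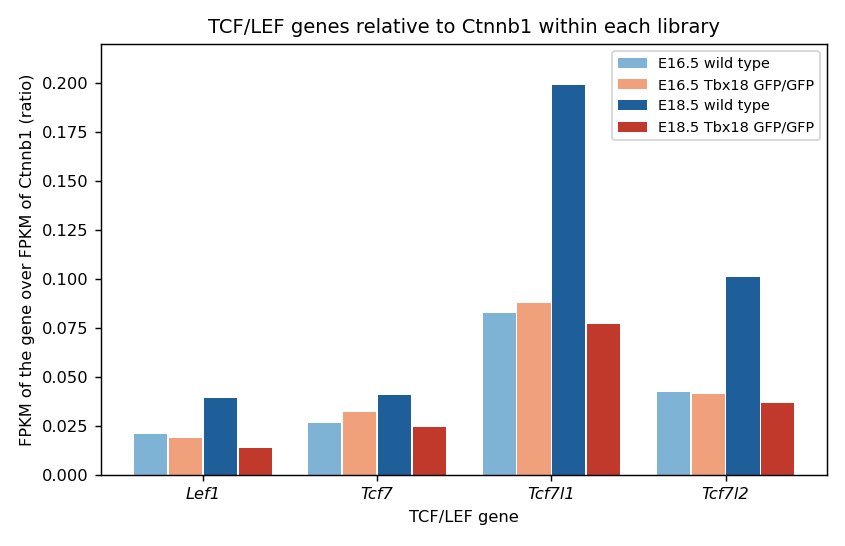
FPKM of each TCF/LEF gene divided by that of *Ctnnb1* in the same library, 1 bar per library, from a baseline of 0. The E18.5 wild type bar is the tallest for all 4 genes, at 0.199 for *Tcf7l1* against 0.0768 to 0.0876 in the other libraries.

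The 4 members that act as feedback regulators differed by less than 1.5-fold between genotypes at both stages. *Axin2*, the most widely used readout of the canonical branch, had 10.3, 13.3, 8.45 and 9.09 FPKM. *Nkd1* and *Nkd2*, whose products bind and restrain Dishevelled, had 13.6, 16.7, 12.7 and 14.9 FPKM and 11.7, 13.7, 10.05 and 10.4 FPKM. *Znrf3*, a ubiquitin ligase that removes Frizzled receptors, had 5.42, 5.87, 4.39 and 4.76 FPKM. In all 4 genes the E16.5 mutant was the highest of the libraries, which was not counted over all genes. Their log2 ratios at E16.5 were 0.37, 0.29, 0.22 and 0.12, while 54.2% of all genes had a ratio above 0. With library sums made equal they were 0.26, 0.19, 0.12 and 0.01, while 22.4% of all genes had a ratio above 0. *Lef1* and *Lgr5*, also known as targets of the pathway, had -0.20 and -0.32 as deposited. At E18.5 the deposited ratios of the 4 members ran from 0.05 for *Nkd2* to 0.24 for *Nkd1*, but all 4 were below the all-gene median.

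**Figure D4:**
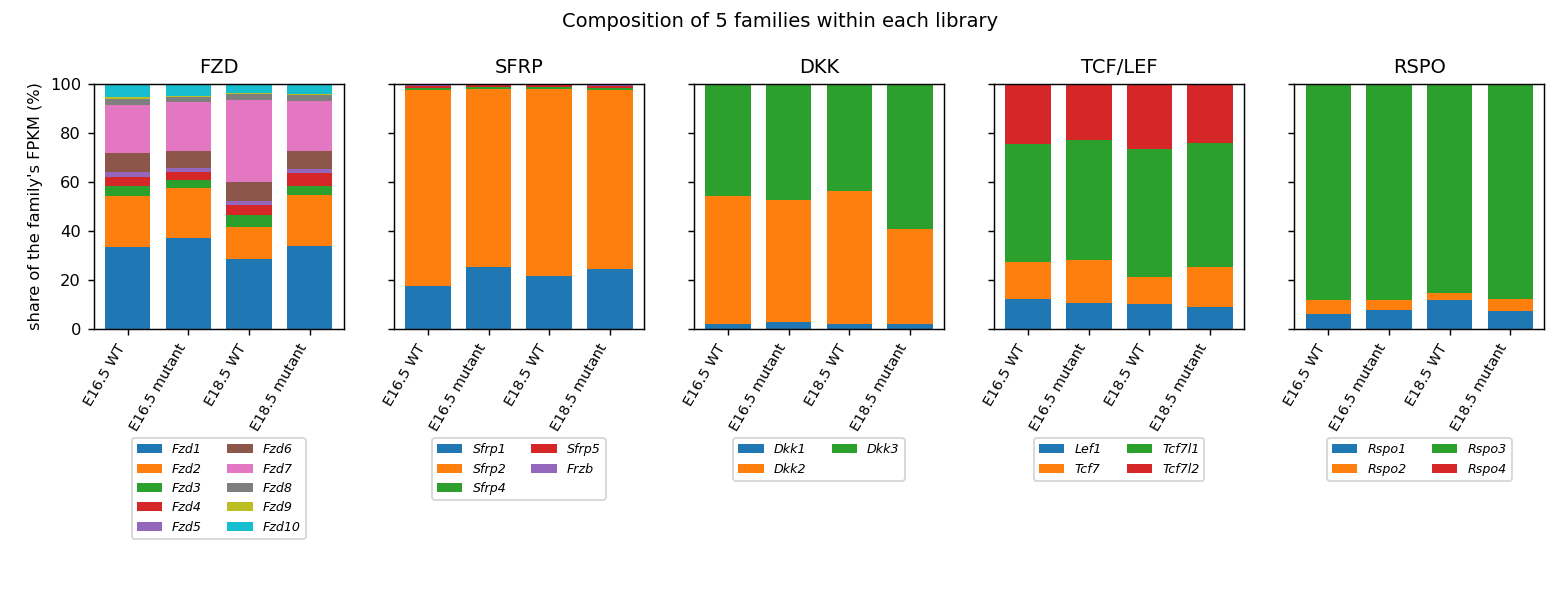
Share of each family's summed FPKM (%) held by each gene, for the Frizzled, SFRP, DKK, TCF/LEF and R-spondin genes, 1 bar per library. *Fzd7* holds 33.4% in E18.5 wild type against 19.6% to 20.6% elsewhere, and *Dkk2* and *Dkk3* change order in the E18.5 mutant, at 38.9% and 59.3%.

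Counted over the members, E16.5 differences between genotypes were few. Of the 39 members that reached 1 FPKM in one of the pair, none was 2-fold higher in the mutant, where 0.481% of all 14761 such genes were, and 1 was 2-fold lower, *Fzd9*, where 1.17% were. At 1.5-fold, *Rspo1* was higher and *Frzb* and *Fzd9* were lower, against 1.44% and 2.72% of all genes. The median log2 ratio of the members was -0.02, against 0.01 over all genes, with 17 members higher and 22 lower. By role the medians were -0.03 for receptors, -0.19 for antagonists, 0.46 for the 3 R-spondins past the minimum and 0.07 for effectors and targets.

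At E18.5 none of 38 members reached 2-fold in either direction, although 15.1% of 14733 genes were 2-fold higher and 2.89% were 2-fold lower. At 1.5-fold, 7 members were higher, *Ctnnb1*, *Frzb*, *Fzd2*, *Fzd4*, *Kremen1*, *Ror2* and *Rspo2*, and 5 were lower, *Lef1*, *Lgr5*, *Rspo1*, *Tcf7l1* and *Tcf7l2*. These are 18.4% and 13.2% of the members, against 33.2% and 7.6% of all genes. *Fzd2* came nearest to 2-fold, with a log2 ratio of 0.96 (counting limits 0.88 to 1.04). The median log2 ratio was 0.04, below the 0.31 of all genes, and centred it was -0.25, with 10 members higher and 28 lower.

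The counts at E18.5 depended on the scaling of the libraries. Centring takes the same 0.29 off every E18.5 ratio, so it can only lower the count of higher members and raise that of lower ones, and making sums equal or upper quartile scaling acts in the same direction. Centred on the all-gene median, 1 member was 1.5-fold higher, *Fzd2*, and 9 were lower, against 19.7% (2909) and 16% (2361) of 14733 genes. The centred log2 ratio was -1.21 for *Lef1*, -1.14 for *Tcf7l2*, -1.05 for *Tcf7l1*, -0.93 for *Rspo1* and -0.88 for *Lgr5*. Adjusted for length and GC content, which shifts each gene by its own amount, 1 was higher, *Fzd4*, and 10 were lower, against 13.1% and 14.7% of 13811 genes. The 5 members 1.5-fold lower as deposited were among these 10.

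The ratio at E18.5 followed GC content over all genes. The Spearman correlation of the log2 ratio with GC content was 0.44 across 13005 genes and 0.2 across 38 members, as a description over genes of the same libraries. The median GC content was 50.9% for members and 50.1% for all genes. *Tcf7l1* and *Rspo1*, at 59.3% and 59.7%, lay in the range where most genes were higher in the mutant, yet had log2 ratios of -0.76 and -0.64, and each was -1.54 once adjusted. *Ror2*, at 58.9%, lay near the curve, and its ratio of 0.76 became 0.07 once adjusted.

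**Figure D5:**
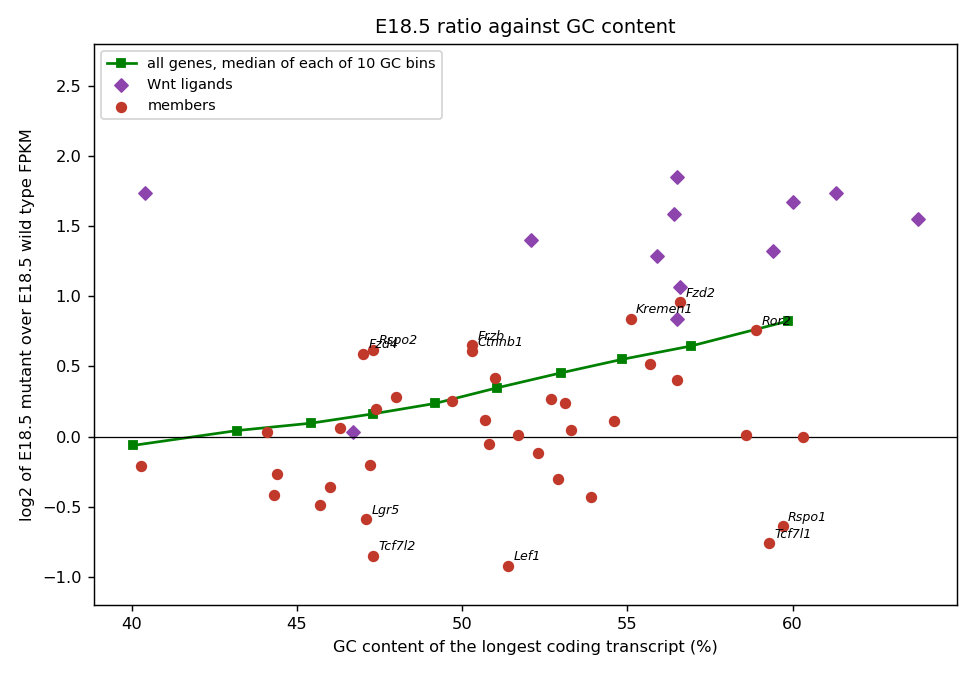
Log2 ratio of E18.5 *Tbx18* GFP/GFP to E18.5 wild type FPKM against the GC content (%) of the longest coding transcript. Squares joined by a line are medians of 10 bins of all genes, circles are the members and diamonds the Wnt ligand genes; *Tcf7l1* and *Rspo1* lie far below the line, and all but 2 of the ligands lie above 1.

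The E18.5 differences were taken against the wild type library that stood apart. It held the highest or the lowest of the 4 values for 33 of 39 members (84.6%), near the 85.8% of all genes, and the lowest for 23 (59.0%), against 63.8%. It was the highest library for 10, which were *Fzd3*, *Fzd7*, *Lrp6*, *Lgr5*, *Sfrp4*, *Rspo1*, *Apc*, *Lef1*, *Tcf7l1* and *Tcf7l2*. Between the other 3 libraries, 5 of 39 members (12.8%) spanned 1.5-fold, against 9.54% of all genes, and these were *Dkk2*, *Frzb*, *Fzd9*, *Lef1* and *Rspo1*. With E16.5 wild type in place of E18.5 wild type, which adds the difference in stage, no member was 1.5-fold higher in the E18.5 mutant and 3 were lower, against 3.06% and 3.41% of all genes. These 3 were *Lef1* with a log2 ratio of -0.72, *Fzd9* with -0.67 and *Dkk2* with -0.61. Of these, *Fzd9* was below 1 FPKM in both E18.5 libraries. *Lef1* was thus low in the E18.5 mutant against either wild type library.

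The comparison of stages within wild type UGS shares the E18.5 wild type library with the genotype comparison at E18.5, so the values are not separate evidence. No member was 2-fold higher at E18.5 and 3 were 2-fold lower, *Fzd9*, *Ror2* and *Kremen1*, against 2.7% and 16.8% of 14807 genes. Their log2 ratios of E18.5 to E16.5 were -1.47, -1.12 and -1.09, and -0.40, -0.30 and -0.53 once adjusted for length and GC content. *Fzd9* passed the minimum only through E16.5 wild type, so its difference was in part fixed by the minimum. *Fzd2* had -0.99 and *Rspo2* -0.92, and on the other side *Rspo1* had 0.96, *Tcf7l1* 0.55 and *Tcf7l2* 0.54. The median over members was -0.23, and -0.35 over all genes.

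Within the mutant the stages could be compared without that library. None of 38 members was 2-fold apart, against 1.35% of 14713 genes higher and 0.571% lower at E18.5. At 1.5-fold only *Frzb* was higher and none was lower, against 3.0% and 1.68%. The members nevertheless leaned one way, with small ratios. Their median log2 ratio was -0.18, and 33 of 38 (86.8%) were lower at E18.5, against a median of -0.06 and 64.7% of all genes. The lean was not particular to the members. Other genes of the pathway, described below, had a median of -0.19, with 40 of 53 (75.5%) lower. Wnt ligand genes also had a median of -0.19, with 7 of 12 lower. Centred, 30 of 38 were lower, and adjusted for length and GC content 28 of 38 were. *Axin2* had -0.54, *Lef1* -0.52, *Fzd10* -0.51, *Rspo1* -0.47, *Rspo3* -0.45, *Wif1* -0.44 and *Tcf7* -0.43. The 5 members that were higher were *Frzb* with 0.65, *Dkk3* with 0.38, *Fzd4* with 0.28, *Ryk* with 0.09 and *Apc* with 0.05.

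Other genes of the pathway gave a frame for these values. Of 57 listed, 55 were in the table. At E16.5 1 of 53 past the minimum was 1.5-fold higher, *Dact2*, and none lower, against 1.44% and 2.72% of all genes. *Dact2*, which modulates Dishevelled and TGF-beta receptors, had the largest log2 ratio at both stages among those reaching 1 FPKM in both genotypes, 0.59 at E16.5 and 1.54 at E18.5. Next at E16.5 came *Notum* with 0.51, and the lowest were *Tpbg*, an inhibitor of LRP6, with -0.54 and the polarity cadherin *Celsr3* with -0.37. At E18.5, 15 of 52 (28.8%) were 1.5-fold higher and 2 (3.85%) were lower, against 33.2% and 7.6% of all genes. The 2 lower were *Pygo1*, a co-activator of beta-catenin, with -0.85 and *Dvl3* with -0.79. *Dvl1* and *Dvl2*, of the same Dishevelled family as *Dvl3*, had 1.43 and 0.9, so these 2 lay on the other side from *Dvl3*. Centred, the ratios were 1.14 for *Dvl1*, 0.61 for *Dvl2* and -1.08 for *Dvl3*. The Wnt ligands themselves lay apart from these genes. In the E18.5 mutant 10 of the 12 expressed ligand genes were 2-fold higher, against 15.1% of all genes and no member. Of these, *Wnt10a*, *Wnt16* and *Wnt9b* reached 1 FPKM at E18.5 only in the mutant, so their differences were in part fixed by the minimum. The median log2 ratio of the 12 ligands was 1.48 as deposited, 1.19 centred and 0.78 adjusted for length and GC content. Where both libraries had to reach 1 FPKM, 9 ligands were left, with a median of 1.4 as deposited. In all 12 E18.5 wild type was the lowest library, as it was for 63.8% of all genes. The median GC content of these ligands was 56.5%.

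RefSeq promoter windows, 250 bases before to 50 after a gene's start in GRCm38.p6, were kept for 26 of the 41 members, with 32 windows. They were searched for CTTTGA, the core letters bound by TCF/LEF factors, and for TCAAAG, the same letters on the other strand. Of the member genes 19.2% had a match, against 18.2% of all 27025 genes with a window. The 5 were *Frzb*, *Lef1*, *Dkk1*, *Ror1* and *Fzd1*. The windows kept include none of *Fzd8* or *Apc*, and whether these members have a match is not given. The windows of all genes were not matched to those of the members, so these percentages are not of like sets. Shown are *Frzb*, which passed 1.5-fold in opposite directions, and the 1 of 4 *Lef1* windows with matches, since *Lef1* had the lowest ratio at E18.5, with the matches in capitals. The *Frzb* window is chr2:80447347-80447646 on the minus strand and its match lies at position -95 from the start of the gene. The *Lef1* window is chr3:131156044-131156343 on the plus strand, the most downstream of its 4 RefSeq starts, with matches at positions -180 and -120 from that start. For 24 of the 32 windows, that of *Frzb* included, the last 30 bases lay in a GENCODE transcript of the gene, but for none of the 4 *Lef1* windows. A match describes letters only, and these positions are of another build than those of the deposited table.
Frzb: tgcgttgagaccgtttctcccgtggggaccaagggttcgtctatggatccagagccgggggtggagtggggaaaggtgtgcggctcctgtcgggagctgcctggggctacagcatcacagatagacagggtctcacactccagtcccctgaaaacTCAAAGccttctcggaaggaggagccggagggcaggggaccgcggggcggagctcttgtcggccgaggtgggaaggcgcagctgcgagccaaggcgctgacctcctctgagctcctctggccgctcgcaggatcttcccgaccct
Lef1: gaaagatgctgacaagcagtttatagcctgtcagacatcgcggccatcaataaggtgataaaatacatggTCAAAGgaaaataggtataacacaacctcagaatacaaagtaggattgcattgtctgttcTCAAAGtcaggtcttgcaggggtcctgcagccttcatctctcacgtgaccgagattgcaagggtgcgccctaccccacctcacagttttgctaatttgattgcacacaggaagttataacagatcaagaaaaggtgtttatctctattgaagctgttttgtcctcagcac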

How the data were processed

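RNA-Seq of 4 libraries, each RNA pooled from 3 male embryos, was made by the authors with a stranded kit and single-end reads. Per the methods and the submitters' processing notes, CASAVA 1.8.2, Trimmomatic 0.30, TopHat2 2.1.0 at default options and Cufflinks 2.2.1 were used. The deposited values are FPKM, with no further scaling stated. The genome build of the deposited positions is not given in the sources used here, and only 214 of 20022 starts equal those of GRCm38.p6. Whether counting used strand is not stated, so antisense transcripts cannot be told apart.

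FPKM ratios were taken without a pseudocount where one of the compared libraries reached 1 FPKM, and members were counted at 2-fold and 1.5-fold. With 1 library per group no test was applied. Depth came from the FPKM of single reads on 15 to 27 olfactory receptor genes per library. Reads of a gene were estimated from this depth and the longest protein-coding GENCODE M21 transcript, and the 95% limits are exact binomial, for counting error only. A lowess trend (span 0.3) on length, then GC content, was subtracted as an alternative. Other alternatives were library sums made equal, centring on the median of all genes, upper quartile scaling (75th percentile), no minimum, a minimum of 5 FPKM, a minimum of 1 FPKM required of both libraries, pseudocounts of 0.1 and 1, repeated symbols left out, and E16.5 wild type as reference at E18.5. The trend step was tested on simulated data.

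All 41 members were named. Of the other pathway genes, those named by rule are the 2 highest and 2 lowest ratios per stage where both libraries reached 1 FPKM. *Dvl2* was named beside them as a relative of *Dvl1* and *Dvl3*. Members and lists were chosen with earlier results of these data known. Protein sequences were not used here. Software was Python 3.11.15, statsmodels 0.14.6, scipy 1.17.1, pandas 2.3.3, matplotlib 3.10.9 and numpy 2.4.6.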

Additional observations from a re-analysis of the deposited data

Results flagged for a closer look

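In 2 members the deposited difference between genotypes passed 1.5-fold in opposite directions at the 2 stages, against 0.941% of 14455 genes. Frzb had a log2 ratio of mutant to wild type of -0.75 at E16.5 and 0.65 at E18.5. Rspo1 had 0.80 at E16.5 and -0.64 at E18.5. With sums made equal, centring, upper quartile scaling or the length and GC adjustment, only Rspo1 did so, since the E18.5 ratio of Frzb became 0.23, 0.36, 0.39 and 0.32. The difference between stages was not tested, since each stage had 1 library per genotype. Signs were opposite in 17 of 38 members (44.7%) and in 43.9% of all genes as deposited, and in 20 members and 44.1% of all genes once centred. Adjusted for length and GC content, they were opposite in 24 members (63.2%) and in 44.3% of all genes.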

How the results depend on the processing

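The limits are those of 1 pooled library per group, about 29000000 reads in the shallowest, and a scaling between libraries that the data do not fix. The labels give no replicate numbers, and a model of stage plus genotype over the 4 libraries, which would leave 1 residual degree of freedom, was not run. At E16.5, the 1 member 1.5-fold higher became 0 with a minimum of 5 FPKM and with a pseudocount of 1. The 2 members 1.5-fold lower became 0 under both of these and 1 where both libraries had to reach 1 FPKM, and the 1 member 2-fold lower, Fzd9, became 0 under all 3 and with a pseudocount of 0.1. At E18.5, the 0 members 2-fold lower became 5 with library sums made equal, 3 with centring, 3 with upper quartile scaling and 4 with the trend subtracted, and the 0 higher became 1 without a minimum, which was Rspo4 at about 1 and 4 reads. Between wild type stages, 0 members 2-fold higher became 1 with sums made equal, 1 with centring, 1 with upper quartile scaling and 2 with the trend subtracted. The 3 members 2-fold lower became 1 with sums made equal, 1 with centring, 1 with upper quartile scaling, 1 with a pseudocount of 1 and 0 with the trend subtracted. They became 2 with a minimum of 5 FPKM and 2 where both libraries had to reach 1 FPKM. Between mutant stages, 0 higher became 1 without a minimum. Sums, centring and upper quartile shift all ratios of a comparison by 1 amount, and the cause of the other changes was not tested. Signs at E18.5 changed for 14 of 38 members with sums made equal, 12 with centring, 10 with upper quartile scaling and 10 with the trend subtracted. At E16.5 they changed for at most 5 of 39.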
